A study of Mus musculus with 9 samples.

Results

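The immunity-related GTPases and guanylate-binding proteins are a set of 10 genes of the deposited RNA-seq table, taken by symbol: Irgm1, Irgm2, Igtp, Iigp1 and Ifi47 of the immunity-related GTPases (IRGs), and Gbp2, Gbp3, Gbp4, Gbp7 and Gbp9 of the guanylate-binding proteins (GBPs). All 10 were found among 53715 gene IDs, and all 10 passed the filter on low counts that left 17351 genes for testing. The cells were sorted from the thymus of C57BL/6 mice aged 6 to 8 weeks by surface TCRβ, CD69, CD24, CD4 and CD8, which marks thymocytes that carry both coreceptors and have received a T cell receptor signal. Wild-type mice (WT, 3 libraries) were compared with mice labelled Srsf1 fl/fl Lck cre/+ (SRSF1KO, 2 libraries), in which Cre expressed from the T-lineage gene Lck removes a floxed part of Srsf1. No Cre or floxed allele is named for the WT mice, so an effect of Cre itself cannot be told apart from loss of SRSF1. SRSF1 is an RNA-binding splicing factor of the serine/arginine-rich family.

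IRGs and GBPs are GTPases that cells make in response to interferons and that assemble on the membranes around intracellular bacteria and parasites. Within the IRGs, Irgm1, Irgm2 and Igtp (also named Irgm3) encode regulators that sit on the cell's own membranes, and Iigp1 (Irga6) and Ifi47 (Irgd) encode effectors that load onto the vacuole of the pathogen. GBPs are large dynamin-like GTPases that coat vacuoles and bacteria and help to open them. Interferons act on the promoters of their target genes through the gamma-activated sequence (GAS) and the interferon-stimulated response element (ISRE), and factors of the IRF family such as IRF1 bind the ISRE. In T cells Irgm1 is also known for protecting activated cells from death.

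Positions are given on GRCm38. Irgm1 (chromosome 11, 48865245 to 48871420) and Ifi47 (chromosome 11, 49076587 to 49096987) share one cluster, and Igtp (chromosome 11, 58199556 to 58207592) and Irgm2 (chromosome 11, 58214977 to 58222783) stand side by side in another stretch of the same chromosome. Gbp7 (142530336 to 142550151), Gbp3 (142560016 to 142573213) and Gbp2 (142620663 to 142638008) lie in one cluster on chromosome 3. Gbp9 (105076464 to 105110357) and Gbp4 (105115767 to 105139586) are neighbours on chromosome 5. Iigp1 lies apart from these clusters.

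RefSeq promoter sequences were at hand for 7 of the 10 genes. The 250 bases before the start site are shown for 5 of them, picked with their levels known. Each of these holds an ISRE core, and Irgm2, Igtp and Gbp7 also hold the GAS letters, which Irgm1 and Gbp2 lack. The windows of Ifi47 and Gbp3 are not shown. Capitals mark matches to the ISRE core GAAANNGAAA on either strand, and Irgm1 lies on the minus strand (chr11:48871421-48871670). Irgm2 (chr11:58214727-58214976), Igtp (chr11:58199306-58199555), Gbp2 (chr3:142620413-142620662) and Gbp7 (chr3:142530086-142530335) lie on the plus strand.
Irgm1: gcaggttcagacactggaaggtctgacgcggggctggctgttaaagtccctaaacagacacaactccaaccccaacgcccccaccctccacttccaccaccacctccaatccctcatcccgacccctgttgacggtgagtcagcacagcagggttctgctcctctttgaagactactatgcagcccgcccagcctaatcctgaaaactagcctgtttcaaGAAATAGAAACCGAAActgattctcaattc
Irgm2: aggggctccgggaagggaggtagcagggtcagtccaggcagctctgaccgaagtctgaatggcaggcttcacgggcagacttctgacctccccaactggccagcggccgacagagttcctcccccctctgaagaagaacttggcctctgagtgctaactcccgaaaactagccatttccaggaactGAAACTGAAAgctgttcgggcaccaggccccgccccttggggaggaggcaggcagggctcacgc
Igtp: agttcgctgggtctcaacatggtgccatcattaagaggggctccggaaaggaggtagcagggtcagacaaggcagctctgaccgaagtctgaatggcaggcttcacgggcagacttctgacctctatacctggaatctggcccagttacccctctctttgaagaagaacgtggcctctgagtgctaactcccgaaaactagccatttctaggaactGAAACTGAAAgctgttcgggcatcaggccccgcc
Gbp2: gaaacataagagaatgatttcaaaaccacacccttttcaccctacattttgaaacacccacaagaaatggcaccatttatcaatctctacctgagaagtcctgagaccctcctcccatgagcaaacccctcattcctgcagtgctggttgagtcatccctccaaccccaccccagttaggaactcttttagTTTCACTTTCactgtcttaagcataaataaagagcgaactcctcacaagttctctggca
Gbp7: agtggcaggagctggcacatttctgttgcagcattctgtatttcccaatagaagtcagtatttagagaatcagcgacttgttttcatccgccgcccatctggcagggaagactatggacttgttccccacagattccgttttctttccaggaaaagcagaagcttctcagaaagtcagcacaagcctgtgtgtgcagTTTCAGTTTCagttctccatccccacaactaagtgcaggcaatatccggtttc

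Of the 7 genes with a promoter sequence, 6 held the ISRE core within 250 bases before a start site. Counted by window, with 2 windows for Gbp3, 6 of 8 held it (75.0%), against 2.98% of 32851 RefSeq promoter windows of that length. Irgm1 had 2 overlapping matches, from 30 to 15 bases before the start, and Gbp3 had 2 overlapping matches, from 45 to 30 bases before the more upstream of its start sites. The matches of Igtp, Gbp7, Gbp2 and Irgm2 began 34, 53, 59 and 64 bases before the start. No match was found in the Ifi47 window or in the window of the other Gbp3 start. The GAS letters TTCNNNGAA, which read the same on both strands, were found in Igtp, Irgm2 and Gbp7 and in 7.02% of all windows, and in none of these 3 did they overlap the ISRE core. Igtp and Irgm2 resembled each other most: 197 of 221 aligned promoter positions were identical (89.1%), and each carried its GAS just before its ISRE core. A match of letters is a description of the sequence and does not show that a factor binds there.

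**Figure D1:**
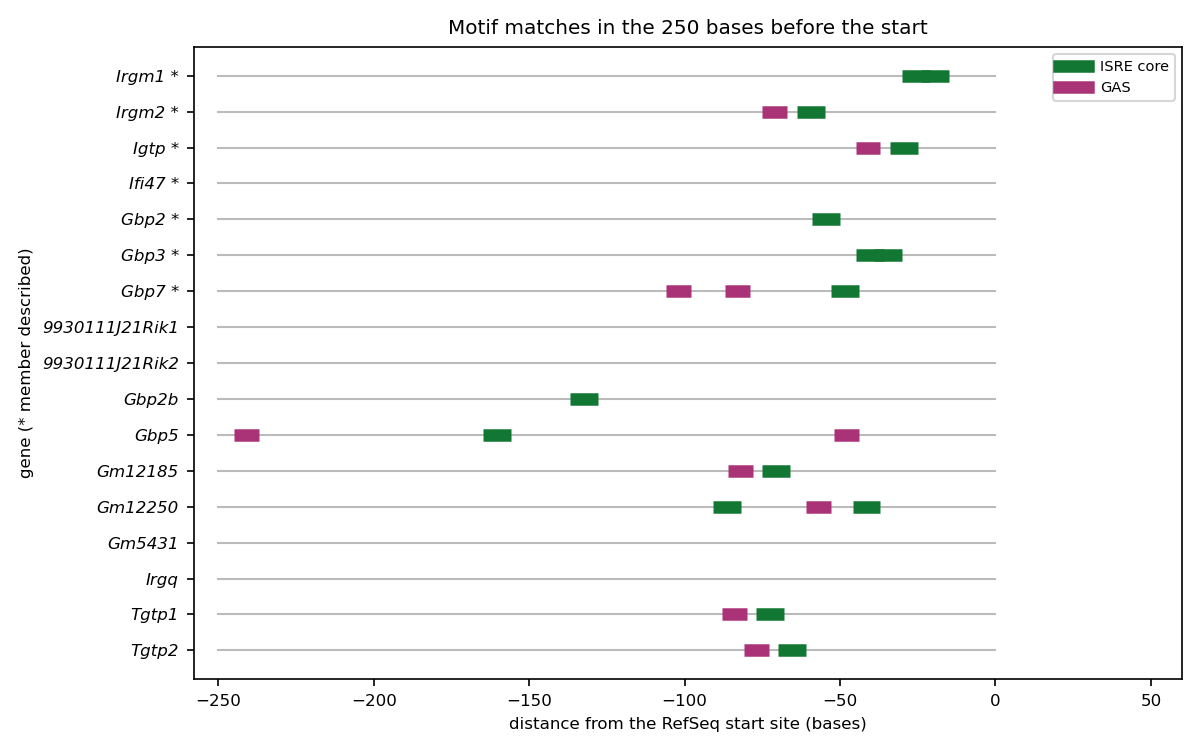
Positions of ISRE core (green) and GAS (magenta) matches in the 250 bases before the RefSeq start site (for Gbp3 the more upstream start), with distance in bases on the x axis and genes on the y axis (asterisks mark the genes described, the others are further family genes). Matches lie mostly within 110 bases of the start, and the Ifi47 line is empty.

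Library totals ran from 36026006 to 38985285 counts, and each of the 10 genes had between 85 and 14356 counts per library. Levels are TMM-normalised CPM, that is, counts scaled to library size, and since they are not divided by transcript length they are compared between libraries and not between genes. Srsf1, the targeted gene, was measured at 96.9, 123 and 103 CPM in the WT libraries, in the order of their replicate numbers, and in the SRSF1KO libraries at 42.6 and 30.9 CPM (log2 fold change −1.55 ± 0.19 SE, edgeR adjusted p = 0.0483). Nothing in the labels ties a replicate to an animal, so p-values describe the spread between these libraries, which could be technical in part. The SRSF1KO libraries did differ in sex-linked transcripts. Ddx3y had 5699 counts and Xist 282 in SRSF1KO replicate 1, against 84 and 21400 in SRSF1KO replicate 2. In bulk RNA, a smaller number of expressing cells and less RNA in each cell cannot be told apart.

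The comparison asked whether levels of these GTPase transcripts differ when SRSF1 is lacking. Ifi47, Gbp9, Irgm1 and Gbp2 were lower in both SRSF1KO libraries than in any WT library, and the SRSF1KO means of Igtp, Irgm2, Iigp1 and Gbp4 were at 102% to 107% of their WT means. None of the 10 passed the test over all 17351 genes (edgeR quasi-likelihood, adjusted p under 0.05), where 0.213% of genes were called lower. At an unadjusted p under 0.05, 4 of 10 were lower and 0 higher, against 8.45% of all tested genes lower and 5.9% higher. DESeq2 called 2 of the 10 lower, Ifi47 and Gbp9, against 3.57% of genes, and limma-voom called Ifi47 alone (adjusted p = 0.0486), against 0.409%. The groups did not overlap for 4 of 10 genes, all lower in SRSF1KO, against 17.8% of all tested genes. The median log2 fold change of the 10 was −0.39, beside −0.01 over all tested genes, and 6 were negative, against 50.6% of all tested genes.

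**Figure D2:**
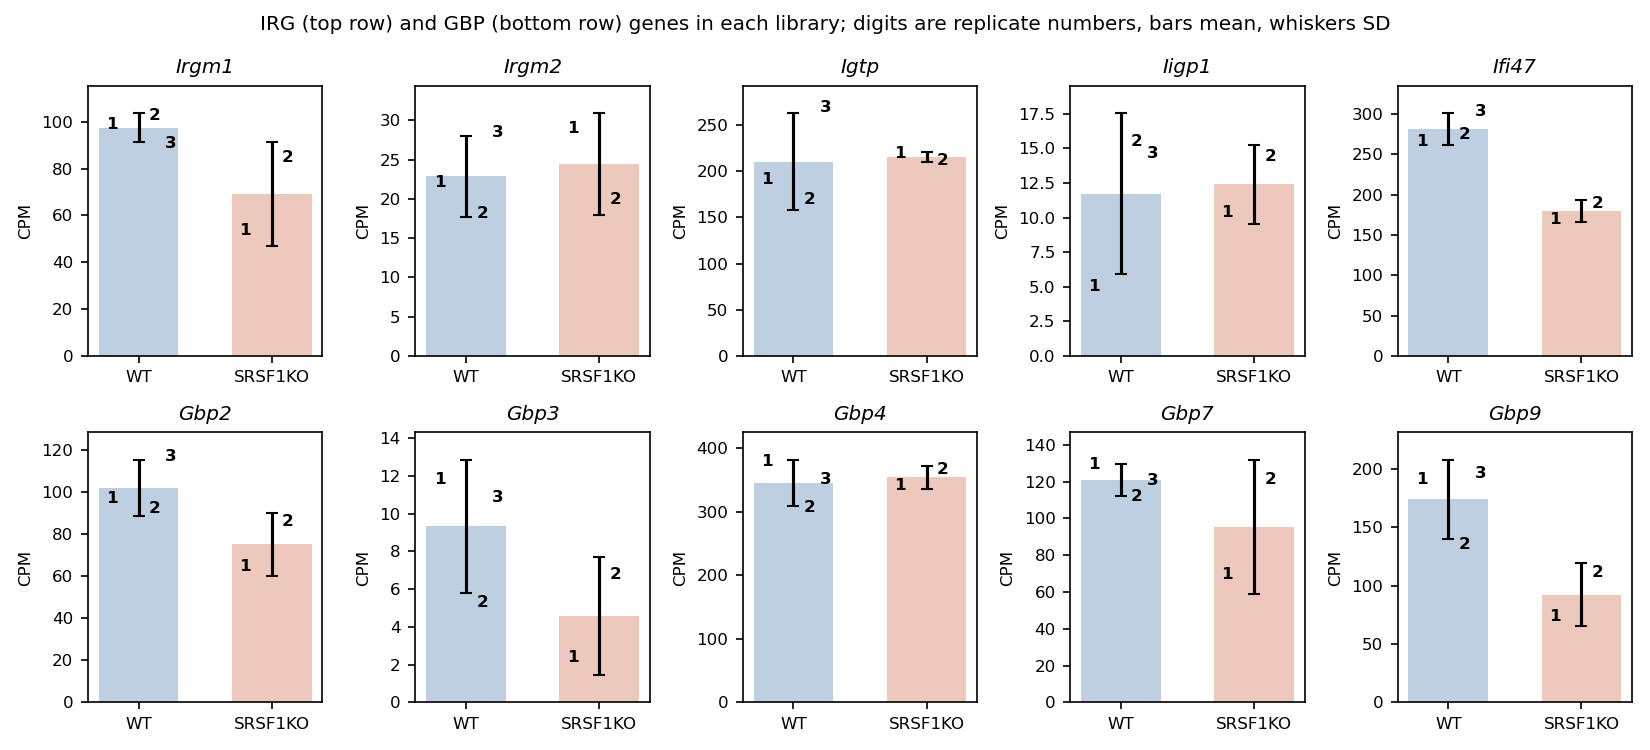
Level in CPM (y axis, from 0) of the 10 genes in WT and SRSF1KO. Bars are means, whiskers SD (n = 3 and n = 2) and digits mark the replicate numbers. SRSF1KO replicates lie below all WT replicates for Irgm1, Ifi47, Gbp2 and Gbp9.

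Among the regulators, Irgm1 was at 99.1, 103 and 90.8 CPM in WT and at 53.5 and 84.9 CPM in SRSF1KO, here and below in replicate order. Both SRSF1KO libraries lay below the WT range, replicate 2 only narrowly. The log2 fold change was −0.50 ± 0.20 (SE, edgeR adjusted p = 0.321). Without SRSF1KO replicate 1 it was −0.20, and without SRSF1KO replicate 2 it was −0.85.

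Igtp, the neighbour and close relative of Irgm2, stood at 191, 170 and 270 CPM in WT and at 219 and 211 CPM in SRSF1KO. The SRSF1KO values sat inside the WT range, and the log2 fold change was 0.03 ± 0.19 (SE, edgeR adjusted p = 0.971). Irgm2 stood at 22.1, 18.2 and 28.4 CPM in WT and at 29.0 and 19.9 CPM in SRSF1KO. Its libraries were interleaved (0.09 ± 0.27 SE, adjusted p = 0.931). Thus the 3 regulator genes did not stand together: Irgm1 was at 71.0% of its WT mean in SRSF1KO, Irgm2 at 107% and Igtp at 102%. Whether Irgm1 differed from the other regulators was not tested. Reads of Igtp and Irgm2 could be split between the genes by the counting, and their summed level was 233 ± 57.6 CPM in WT (SD, n = 3) and 240 ± 12.1 CPM in SRSF1KO (SD, n = 2).

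Of the effectors, Ifi47 had the smallest p of the 10. It stood at 266, 275 and 303 CPM in WT and at 170 and 189 CPM in SRSF1KO. The groups were well apart, with a gap between 189 and 266 CPM, and SRSF1KO was at 63.8% of the WT mean. The log2 fold change was −0.65 ± 0.11 (SE), and its edgeR adjusted p of 0.0675 missed the threshold, with 103 genes ranked ahead of it by p. The adjusted p was 0.00341 without the filter on low counts (1.13% of genes called lower), 0.0131 at a mean of at least 5 CPM (2.35%) and 0.000162 with DESeq2, while it lay between 0.0829 and 0.246 with any single library left out. A pseudogene, Gm12188, lies within the annotated span of Ifi47 and was listed at a mean of 0.286 CPM in WT and 0.433 CPM in SRSF1KO.

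Iigp1 (chromosome 18), the other effector, stood at 5.04, 15.5 and 14.6 CPM in WT and at 10.4 and 14.4 CPM in SRSF1KO. WT replicate 1 was the lowest library, and the remaining values ran from 10.4 CPM in SRSF1KO replicate 1 to 15.5 CPM in WT replicate 2. The log2 fold change of 0.08 ± 0.48 (SE, edgeR adjusted p = 0.972) has an error too wide to describe a change of either sign, and it was −0.27 without WT replicate 1.

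Among the GBPs of chromosome 3, Gbp2 stood at 97.0, 92.2 and 117 CPM in WT and at 64.5 and 85.8 CPM in SRSF1KO. Gbp2 carries a lipid anchor at its C terminus that attaches it to membranes. Its groups did not overlap, and the log2 fold change was −0.44 ± 0.17 (SE, edgeR adjusted p = 0.305). Without SRSF1KO replicate 1 the log2 fold change of Gbp2 was −0.25, and without SRSF1KO replicate 2 it was −0.64.

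Gbp7 stood at 129, 112 and 120 CPM in WT and at 69.7 and 121 CPM in SRSF1KO. Here SRSF1KO replicate 1 alone was low, and replicate 2 sat inside the WT range (−0.34 ± 0.22 SE, edgeR adjusted p = 0.551). Without SRSF1KO replicate 1 the log2 fold change of Gbp7 was 0.01.

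Gbp3 had few reads, 193 to 447 counts in WT and 85 and 243 in SRSF1KO. Its level was 11.8, 5.30 and 10.9 CPM in WT and 2.36 and 6.80 CPM in SRSF1KO. SRSF1KO replicate 2 lay above WT replicate 2, so the groups overlapped, and the log2 fold change of −1.03 ± 0.55 (SE, edgeR adjusted p = 0.457) had the widest error of the 10. It ranged from −1.96 without SRSF1KO replicate 2 to −0.46 without SRSF1KO replicate 1.

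The chromosome 5 neighbours Gbp9 and Gbp4 stood apart from each other. Gbp9 was at 191, 135 and 196 CPM in WT and at 73.4 and 111 CPM in SRSF1KO, or 53.0% of the WT mean. Its groups did not overlap, and the log2 fold change was −0.91 ± 0.23 (SE, edgeR adjusted p = 0.146, DESeq2 adjusted p = 0.00149). Gbp4 was at 379, 307 and 351 CPM in WT and at 342 and 367 CPM in SRSF1KO. The SRSF1KO values of Gbp4 lay within the WT range, with a log2 fold change of 0.04 ± 0.11 (SE, edgeR adjusted p = 0.936). The difference between Gbp9 and Gbp4 was not tested.

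The lower levels came more from SRSF1KO replicate 1 than from replicate 2. Replicate 1 was the lowest of all 5 libraries for 6 of the 10 genes and lay below replicate 2 for 8, and replicate 2 was the lowest for 0. Relative to the WT mean, the median of the 10 genes was −0.70 on the log2 scale in SRSF1KO replicate 1 and −0.20 in replicate 2, and between −0.16 and 0.19 in the WT libraries. These orders and medians were not taken over all tested genes, so whether they are particular to the 10 was not tested. Without replicate 1 the median log2 fold change of the 10 was −0.20, and without replicate 2 it was −0.68. Over all genes tested in these fits it was −0.05 and −0.06. Ifi47 was the gene whose SRSF1KO replicates were alike and both low, at −0.73 and −0.57 relative to WT.

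**Figure D3:**
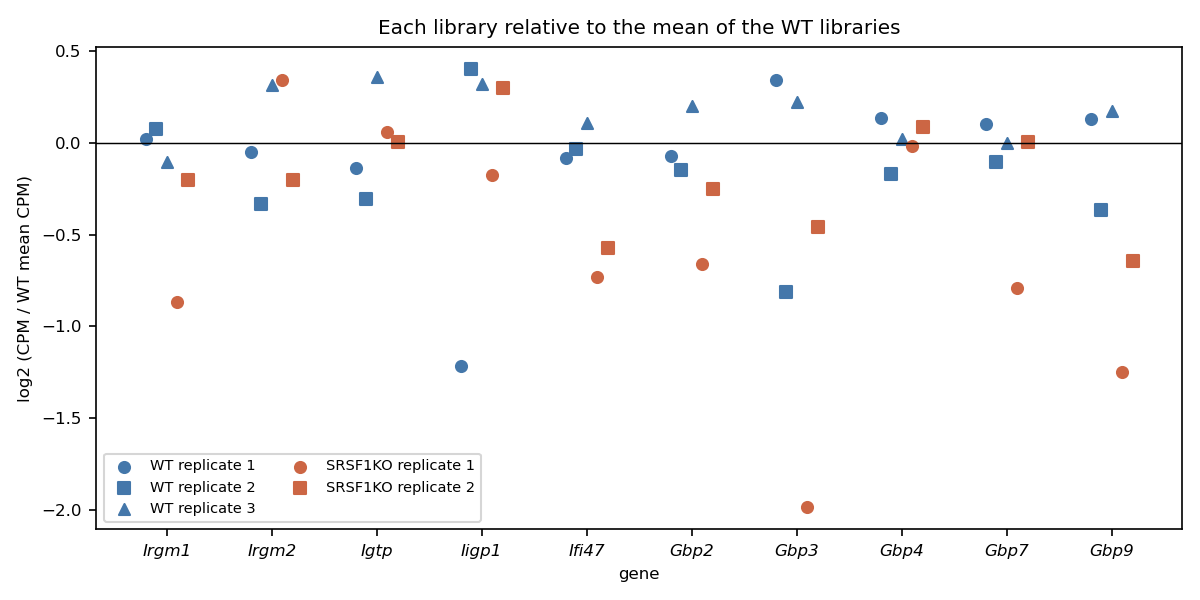
Level of each gene (x axis) in each library relative to the WT mean, on a log2 scale (y axis). Blue symbols are WT, red symbols SRSF1KO, and shapes mark replicates. SRSF1KO replicate 1 reaches −1.98 for Gbp3 and −1.25 for Gbp9, while Igtp and Gbp4 stay near 0 in both SRSF1KO replicates.

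Libraries also fell into 2 patterns of sex-linked transcripts, with Ddx3y above Xist in WT replicate 2 and SRSF1KO replicate 1. Ddx3y had 5803 and 5699 counts in these 2 libraries and Xist 1369 and 282, so they were not alike in Xist. Between these 2 libraries the median difference of the 10 genes was −0.62 on the log2 scale, and between the libraries with Xist above Ddx3y (1 SRSF1KO, 2 WT) it was −0.23, beside −0.04 and −0.00 over all tested genes. Ifi47 differed by −0.69 and −0.59 and Gbp9 by −0.88 and −0.80, nearly alike in both patterns. Irgm1 differed by −0.93 and −0.16 and Gbp7 by −0.68 and −0.04, and Irgm2 changed sign, from 0.66 to −0.33. The differences within a pattern were not tested one by one. With the pattern as a term in the edgeR fit of all 5 libraries 0 of the 10 passed, and 5 had an unadjusted p under 0.05, as did 2269 of the 17351 genes tested. In that fit Gbp9 had a log2 fold change of −0.83 ± 0.10 (SE, edgeR adjusted p = 0.0883) and Ifi47 one of −0.64 ± 0.11 (SE, adjusted p = 0.129).

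Erythroid transcripts were also highest in SRSF1KO replicate 1. Summed over the globin genes Hbb-bs and Hba-a1 they stood at 1.27 to 9.78 CPM in WT, 79.7 CPM in SRSF1KO replicate 1 and 17.8 CPM in replicate 2. Both genes had a higher level in both SRSF1KO libraries, both at an unadjusted p under 0.05, and 0 passed with edgeR or DESeq2. Neutrophil markers (5 genes, 4 tested) summed to 1.32 to 4.78 CPM in WT and to 2.30 and 19.2 CPM in SRSF1KO, with replicate 2 the highest. The 4 tested genes (Elane, S100a9, Mpo and S100a8) had positive log2 fold changes, and 0 passed with edgeR, while DESeq2 called Elane higher. Elane had 0 counts in every WT library and 11 and 67 counts in SRSF1KO. Ly6g had 10 counts in WT replicate 2 and 0 in the other libraries. The part of these cells in the GTPase values was not tested.

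Macrophages and dendritic cells also express GBPs, and their markers were read in the same way. The 7 macrophage markers summed to 93.4 to 116 CPM in WT and to 126 and 108 CPM in SRSF1KO, and the 6 dendritic cell markers to 11.04 to 11.9 CPM and to 11.4 and 16.6 CPM, with 0 of 13 past the edgeR test. Lyz2 was the largest part of the macrophage sum. The dendritic marker Xcr1 was at 0 in SRSF1KO replicate 1, and it was the only one of the 13 that DESeq2 called, as lower, with 0 called higher. At an unadjusted p under 0.05 Xcr1 was lower and Siglech higher. The groups did not overlap for these and for Clec9a and C1qb, both higher in SRSF1KO (17.8% of all tested genes were lower and 15.2% higher without overlap). Clec9a stood at 0 to 0.302 CPM in WT and at 0.832 and 0.951 CPM in SRSF1KO. C1qb stood at 13.4 to 21.7 CPM and at 26.4 and 24.6 CPM. B cell markers summed to 29.4 to 50.01 CPM in WT and to 48.4 and 44.5 CPM in SRSF1KO, and NK and innate lymphoid markers to 1.40 to 4.23 CPM and to 4.22 and 2.13 CPM. The genes listed as stromal markers summed to 167 to 209 CPM in WT and to 205 and 216 CPM in SRSF1KO, and Pecam1 made up most of this sum. Which cells the Pecam1 reads came from was not tested, so the sum cannot be read as an amount of stroma. Epcam, Krt8 and Psmb11 were highest in SRSF1KO replicate 1, at 20.1, 3.02 and 1.94 CPM, against at most 13.9, 1.24 and 0.769 CPM in WT. Col1a1 was highest in WT replicate 1 (2.17 CPM) and Pecam1 in SRSF1KO replicate 2 (201 CPM). The other stromal markers had too few reads to be tested. Of the 8 genes of the sort gate 0 passed with edgeR, and all were detected in every library. DESeq2 called Cd4 higher. Cd4 stood at 881, 767 and 932 CPM in WT and at 1229 and 1118 CPM in SRSF1KO, without overlap (0.45 ± 0.11 SE, edgeR adjusted p = 0.136). The groups overlapped for the other gate genes, Cd69 and Cd8a among them. The part of these differences in the GTPase values was not tested.

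Other genes of both families were taken from a list of 25, of which 22 were in the table and 17 were tested. None passed (edgeR, 0 lower and 0 higher), 4 were lower and 1 higher at an unadjusted p under 0.05 (8.45% and 5.9% of all tested genes), and 14 of 17 lay below 0 on the log2 scale (median −0.33), against 50.6% of all tested genes. DESeq2 called Gbp10 and Tgtp2 lower and Irgq higher, with 3.57% and 2.32% of genes called lower and higher. The groups did not overlap for 4 genes lower in SRSF1KO (Gbp10, Tgtp2, Gbp6 and 9930111J21Rik1) and for 2 higher (Irgq and Gm4070), against 17.8% and 15.2% of all tested genes. Reads of 9930111J21Rik1 could be split with its paralog 9930111J21Rik2. Their sum ran from 37.5 to 46.3 CPM in WT and was 21.2 and 39.8 CPM in SRSF1KO, so for the sum the groups overlapped.

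Gbp10, near Gbp4 on chromosome 5 (105215699 to 105239533), had the largest difference among family genes with a group mean of at least 1 CPM. It stood at 9.16, 8.27 and 9.79 CPM in WT and at 2.00 and 1.93 CPM in SRSF1KO, a log2 fold change of −2.21 ± 0.35 (SE, edgeR adjusted p = 0.0637). In contrast to Irgm1 or Gbp7, both SRSF1KO replicates of Gbp10 were equally low. Gbp6 is a close paralog that could share reads with Gbp10, and the sum of both was 44.5 ± 2.79 CPM in WT (SD, n = 3) and 27.8 ± 1.27 CPM in SRSF1KO (SD, n = 2). With Gbp4 and Gbp8 added, the sum was 566 ± 54.2 CPM in WT and 543 ± 14.6 CPM in SRSF1KO (SD), and the groups overlapped. Gbp4, at 307 to 379 CPM in WT, was the largest part of that sum. Whether reads were split among these genes was not tested.

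Tgtp2, an IRG effector of the Ifi47 cluster, stood at 97.8, 84.3 and 111 CPM in WT and at 54.1 and 65.4 CPM in SRSF1KO (−0.71 ± 0.16 SE, edgeR adjusted p = 0.127). Its near-identical copy Tgtp1 stood at 19.4 to 23.4 CPM in WT and at 18.1 and 23.9 CPM in SRSF1KO, and the 2 summed to 119 ± 12.6 and 80.7 ± 12.1 CPM (SD, n = 3 and n = 2). Irgq, a divergent relative, stood higher, at 39.6, 46.2 and 48.4 CPM in WT and 68.4 and 69.4 CPM in SRSF1KO (0.62 ± 0.15 SE, edgeR adjusted p = 0.135). Of the 10 further family genes with a RefSeq promoter, 6 held the ISRE core, and the Irgq window held neither motif.

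**Figure D4:**
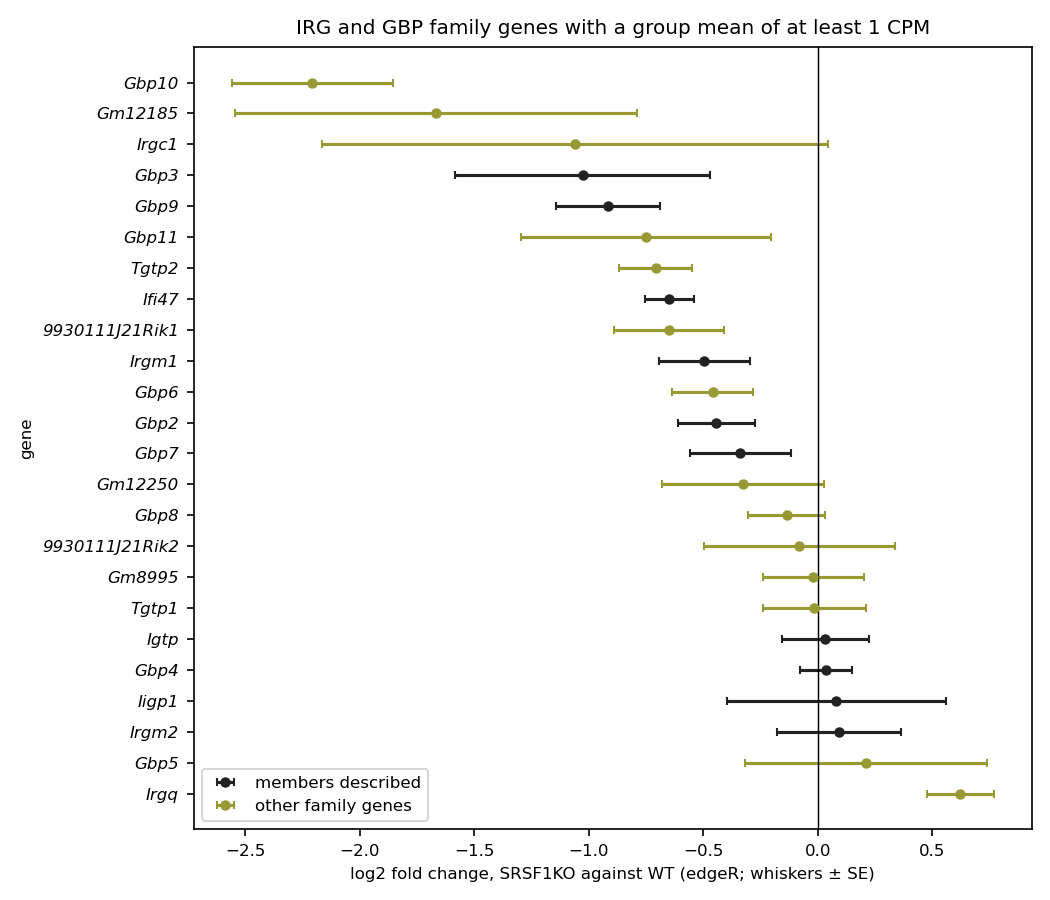
Log2 fold change of SRSF1KO against WT (x axis, edgeR, whiskers ± SE) for the 10 genes described (black) and other family genes (olive) with a group mean of at least 1 CPM, sorted by value on the y axis. Gbp10 lies at −2.21 and Irgq at 0.62, with Igtp, Gbp4, Iigp1 and Irgm2 next to 0.

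Genes around the family were read as a local comparison. Within 100 kb of one of the 10, 16 genes of other families were tested and 0 passed with edgeR, with a median log2 fold change of 0.00. At an unadjusted p under 0.05, 2 were lower and 3 higher (8.45% and 5.9% of all tested genes), and DESeq2 called 1 lower and 2 higher (3.57% and 2.32%). The groups did not overlap for 5 that were lower in SRSF1KO (Rack1, Trim7, Psme2b, Smim3 and Kyat3) and for 5 that were higher (Cnot8, Zfp692, Olfr1396, Olfr56 and Abcg3), against 17.8% and 15.2% of all tested genes. Psme2b, within 100 kb of Irgm1 and a copy of Psme2 that could share its reads, stood at 24.3 and 13.4 CPM on average (−0.86 ± 0.22 SE, adjusted p = 0.154), and Olfr56, within 100 kb of Ifi47, at 1.87 and 8.25 CPM (2.14 ± 0.43 SE, adjusted p = 0.104).

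Interferon genes themselves had few or no reads. Ifng had 2, 4 and 8 counts in WT and 2 and 1 in SRSF1KO, and Ifnb1 and Ifnl2 had 0 in every library. Of the 7 ligand genes listed only Ifnk had enough reads to be tested, and it did not pass (adjusted p = 0.841).

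For each list that follows, the shares over all tested genes are 8.45% lower and 5.9% higher at an unadjusted p under 0.05, and 3.57% lower and 2.32% higher with DESeq2. Of the receptors and their kinases 7 of 8 were tested and 0 passed (edgeR), with 2 lower and 1 higher at an unadjusted p under 0.05. Ifngr1, a chain of the interferon gamma receptor, stood at 297, 299 and 366 CPM in WT and at 518 and 399 CPM in SRSF1KO (0.51 ± 0.14 SE, adjusted p = 0.186). The receptor-bound kinase Jak2 stood at 34.8, 50.3 and 33.9 CPM in WT and at 24.9 and 22.4 CPM in SRSF1KO (−0.75 ± 0.23 SE, adjusted p = 0.217), and Jak1 had a log2 fold change of −0.21 ± 0.08. DESeq2 called Ifngr1 higher and Jak2 lower.

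Among 8 tested transcription factors 0 passed with edgeR, 3 were lower and 0 higher at an unadjusted p under 0.05, and the 3 were called lower by DESeq2: Irf1, Irf9 and Nlrc5. Irf1 stood at 154, 288 and 163 CPM in WT and at 108 and 126 CPM in SRSF1KO (−0.78 ± 0.27 SE, edgeR adjusted p = 0.263). Irf9, a factor that binds the ISRE as part of a complex, had a log2 fold change of −0.54 ± 0.12 (adjusted p = 0.126). Nlrc5, the transactivator of class I genes, stood at 257 to 260 CPM in WT and at 100 and 167 CPM in SRSF1KO (−0.95 ± 0.20 SE, adjusted p = 0.118). Irf1 and Nlrc5 thus had the same order of the SRSF1KO replicates as Irgm1, with replicate 1 lower, and in Irf9 replicate 2 was lower (109 and 95.7 CPM).

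Of 9 inhibitors 0 passed with edgeR, 1 was lower and 2 were higher at an unadjusted p under 0.05, and DESeq2 called Socs1 alone, as higher. Socs1, a feedback inhibitor of JAK kinases, stood at 106 to 148 CPM in WT and at 212 and 172 CPM in SRSF1KO (0.57 ± 0.16 SE, adjusted p = 0.194), and the phosphatase genes Ptpn2 and Ptpn6 had log2 fold changes of 0.38 ± 0.12 and −0.36 ± 0.11. Among 19 tested genes that interferon gamma induces outside the GTPase families, 1 was lower and 0 higher with edgeR (0.213% of all tested genes were called lower), 14 were negative (50.6% of all tested genes) and the median log2 fold change was −0.56. At an unadjusted p under 0.05, 9 were lower and 2 higher (Cxcl9 and Nos2). DESeq2 called 7 lower (B2m, Psmb9, Psmb10, Tap1, Tapbp, Wars and Xaf1) and 1 higher (Cxcl9), against 3.57% and 2.32% of genes. Cxcl9 had 0 counts in every WT library and 11 and 60 counts in SRSF1KO. B2m, the light chain of MHC class I, fell by 0.81 ± 0.11 on the log2 scale (SE, adjusted p = 0.0483). Psmb9, an immunoproteasome subunit, and Tap1, a peptide transporter, did not pass, at −0.78 ± 0.14 (adjusted p = 0.0858) and −0.64 ± 0.12 (adjusted p = 0.0877).

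Genes whose products load or modify these GTPases showed no calls with edgeR. The ATG8 conjugation system places IRGs and GBPs on vacuoles. The list of 16 genes, all tested, held this system and further genes such as Sqstm1, Traf6, Ulk1 and Becn1. Of the 16, 0 passed with edgeR or DESeq2 and 1 was lower at an unadjusted p under 0.05. The median log2 fold change was −0.04, with Becn1 the lowest at −0.41 ± 0.13 (adjusted p = 0.236). The conjugation genes Atg3, Atg5, Atg7, Atg12 and Atg16l1 ranged from −0.25 to 0.19. Prenylation and the steps that follow it give some GBPs, such as Gbp2, their lipid anchor. Of 6 genes listed for these steps 0 passed with edgeR, 1 was lower and 2 higher at an unadjusted p under 0.05, and DESeq2 called Pggt1b higher. Pggt1b, the catalytic subunit of geranylgeranyl transferase I, stood at 27.2, 16.0 and 27.2 CPM in WT and at 48.4 and 35.2 CPM in SRSF1KO (0.83 ± 0.28 SE, adjusted p = 0.249), Icmt had 0.52 ± 0.21 and Fntb −0.31 ± 0.13. Of 7 tested inflammasome genes, which act after GBPs expose bacterial products, 0 passed with edgeR or DESeq2 and 2 were lower at an unadjusted p under 0.05. The DNA sensor gene Aim2 stood at 4.99 to 6.35 CPM in WT and at 2.77 and 2.55 CPM in SRSF1KO (−1.12 ± 0.39 SE, adjusted p = 0.265), Casp4 had 33, 13 and 2 counts in WT and 0 in both SRSF1KO libraries, and Pycard had 0.21 ± 0.11.

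**Figure D5:**
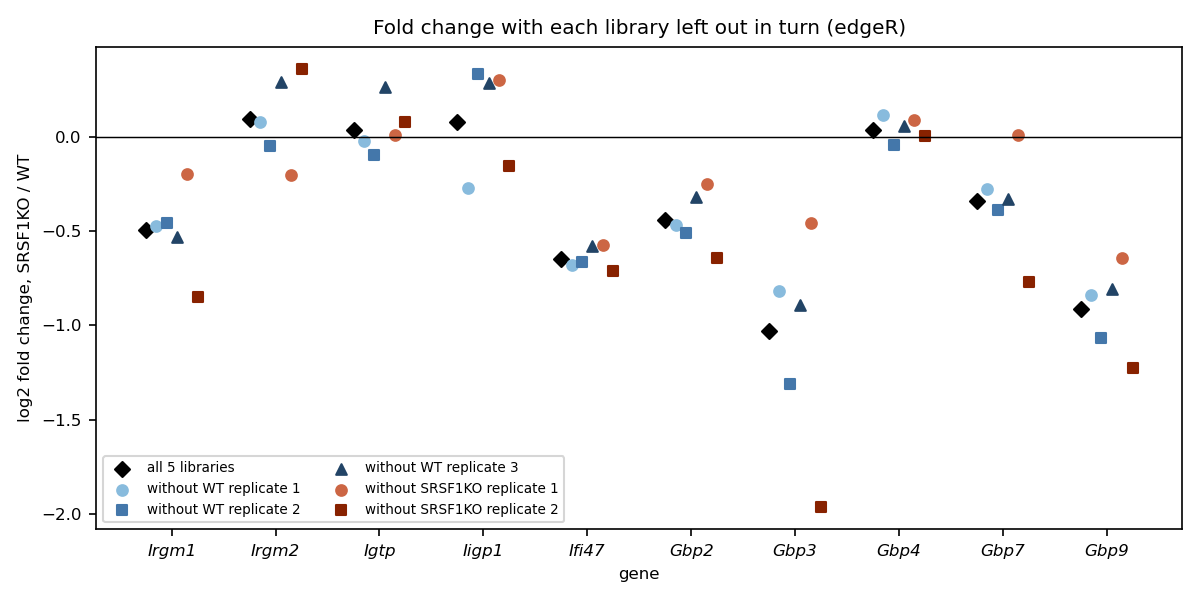
Log2 fold change of SRSF1KO against WT (y axis, edgeR) for the 10 genes (x axis) with all 5 libraries (black diamonds) and with each library left out (coloured symbols). Ifi47 stays between −0.71 and −0.57 and Gbp9 between −1.23 and −0.64, while Irgm1, Gbp3 and Gbp7 move most when an SRSF1KO library is left out.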

How the data were processed

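The authors deposited unnormalised read counts for 53715 Ensembl gene IDs. Per the labels' protocols RNA was column-purified and libraries followed Smart-seq2. Per the submitters' processing notes HTSeq 0.6.1, cutadapt 1.17 and Bowtie2 2.1.0 are among the tools used, with the build mm10 and no role stated. Which aligner made the RNA-seq alignments, the annotation release and strandedness were not given in the sources used here. Reads of overlapping genes, antisense partners and close paralogs may therefore be shared. CLIP-seq (4 samples) was not analysed here.

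IDs were matched to symbols in a names table (53620 matched), and positions and promoters came from RefSeq GRCm38.p6. Counts were tested with edgeR 4.0.16 in R 4.3.3 (TMM, filterByExpr, robust glmQLFit and glmQLFTest, group as the only term), two-sided, with Benjamini-Hochberg adjustment over 17351 genes and a threshold of 0.05. SEs derive from the log2 fold change and F statistic. Alternatives were DESeq2 1.42.0, limma-voom (limma 3.58.1), other scalings and filters, a replicate block, a term for the sex-linked pattern and omission of each library. Differences within a pattern used log2(CPM + 0.5). The scripts were tested on simulated data. Members, lists and alternatives were chosen with earlier results of these data known. The text names all members and, per list, called genes and up to 3 with the smallest p. Of the listed genes, 1 transcription factor and 1 erythroid marker are not reported here. Genes singled out beyond that rule, such as the neighbours, were named after their values were seen.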

Additional observations from a re-analysis of the deposited data

How the results depend on the processing

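The sign of Irgm1, Ifi47, Gbp2, Gbp3 and Gbp9 was negative under all 13 alternatives. Ifi47 and Gbp9 were called without the filter on low counts, at a mean of at least 5 CPM and with DESeq2 (2 members each, against 1.13%, 2.35% and 3.57% of genes called lower), and Ifi47 with limma-voom (1 member). The count over all genes, 46 with edgeR, was 10 with DESeq2 size factors, 544 without the filter, 376 at a mean of at least 5 CPM, 1035 with DESeq2, 94 with limma-voom and 5 with the sex-linked pattern as a term. With a library left out it ranged from 0 (without WT replicate 1, 2 or 3) to 88 (without SRSF1KO replicate 2). It was 11 without SRSF1KO replicate 1, and 0 members were called in any of these edgeR fits. Without WT replicate 1, 1903 of 16612 genes and 2 of 10 members had an unadjusted p under 0.05. Without WT replicate 2 these were 2005 of 16558 and 3, and without WT replicate 3 they were 2079 of 16720 and 2. The members' median ranged from −0.676 (without SRSF1KO replicate 2) to −0.201 (without SRSF1KO replicate 1). Signs turned with a library left out for Igtp (−0.0984 to 0.265), Iigp1 (−0.271 to 0.333), Irgm2 (−0.203 to 0.360), Gbp4 (−0.0414 to 0.118) and Gbp7 (−0.772 to 0.00759). They turned without WT replicate 1 (Igtp, Iigp1), WT replicate 2 (Igtp, Irgm2, Gbp4), SRSF1KO replicate 1 (Irgm2, Gbp7) or SRSF1KO replicate 2 (Iigp1). The cause was not tested, apart from fewer samples in each fit. With the replicate block edgeR called 0 genes (1640 at an unadjusted p under 0.05) and 0 members, and the members' median was −0.37. The replicate numbers share nothing but the number in the labels, and deviations of same-numbered libraries correlated at −0.0458 and −0.0132. The deviations of the 2 SRSF1KO libraries from their mean mirror each other, so these 2 values are not independent. With a library left out of SRSF1KO, the lone library is assumed to vary like WT. Depth was lowest for Gbp3 and Iigp1, at 85 to 564 counts per library, and its share in their spread was not tested.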
